A study of Mus musculus with 22 samples.

Results

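Slc16a1, Slc16a3, Slc16a6, Slc16a10, Slc16a11 and Slc16a13 encode members of the monocarboxylate transporter family, and their RNA was measured in hematopoietic stem cells and myeloid and erythroid precursors of mice with and without ARID1A. These 6 genes were chosen by name from the 14 annotated Slc16 genes that have transcripts in the deposited tables, and from 47311 genes in all. They were selected on results of these data, in which Slc16a11 had been seen to be higher in KO LT-HSC and KO CMP, and Slc16a3 in KO GMP. For that reason KO and WT are set side by side without a test in LT-HSC, CMP and GMP. The difference in MEP, the differences between WT populations, and genes outside the 6 were tested.

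KO mice were Arid1a f/f;Mx1-Cre+ and WT mice were their Arid1a f/f;Mx1-Cre- littermates of the same sex, on a backcross to C57BL/6. ARID1A is a DNA-binding subunit of the BAF (SWI/SNF) chromatin remodelling complex, and in these mice exon 9 of its gene is flanked by loxP sites. Both genotypes were given poly(I:C) at 8 to 14 weeks of age, in 5 intraperitoneal doses of 300 µg, and cells were sorted from bone marrow 4 weeks later. Mx1-Cre is switched on by interferon, which poly(I:C) induces in many tissues, so that the deletion is not limited to blood cells, and the floxed alleles and poly(I:C) are shared by all groups. LT-HSC (CD34-Flt3- cells of the Lin-Sca1+Kit+ gate) came from 2 WT and 2 KO mice, lettered A and B here in the order of their animal numbers. Common myeloid precursors (CMP), granulocyte-macrophage precursors (GMP) and megakaryocyte-erythroid precursors (MEP) came from 3 other WT mice (300, 305 and 309) and 3 other KO mice (301, 304 and 308), each of which gave all 3 populations. An ultra-low-input cDNA kit was used for LT-HSC and poly-A selection for the precursors, so that differences between LT-HSC and precursors cannot be told apart from differences of kit and mouse.

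Monocarboxylate transporters are membrane proteins that move small organic acids across the cell membrane, the best known of them together with a proton. MCT1 (Slc16a1) carries lactate, pyruvate and ketone bodies in most tissues, and MCT4 (Slc16a3) is known for exporting lactate from cells with high glycolysis. MCT7 (Slc16a6) has been linked to export of the ketone body beta-hydroxybutyrate from liver, TAT1 (Slc16a10) carries aromatic amino acids and thyroid hormone without a proton, and MCT11 (Slc16a11) and MCT13 (Slc16a13) are less studied carriers of pyruvate and lactate. MCT1 and MCT4 need the glycoprotein basigin or its relative embigin to reach the cell surface. Erythroid precursors and granulocytes both make lactate by glycolysis.

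Of the 6 genes, 4 lie on chromosome 11 in GRCm38 coordinates. Slc16a11 (ENSMUSG00000040938) spans chr11:70212752-70216417 on the plus strand and Slc16a13 (ENSMUSG00000044367) spans chr11:70216789-70221064 on the minus strand, tail to tail with 371 bases between them. Slc16a6 (ENSMUSG00000041920) lies at chr11:109450855-109473598 on the minus strand. Its exons overlap those of Amz2 and Arsg on the opposite strand and of the small RNA gene Gm25540, and since the strand setting of the counting is not given in the sources used here, its counts are uncertain to that extent. Slc16a3 (ENSMUSG00000025161) lies at chr11:120948480-120960868 on the plus strand, Slc16a1 (ENSMUSG00000032902) at chr3:104638668-104658462 on the plus strand, and Slc16a10 (ENSMUSG00000019838) at chr10:40033532-40142258 on the minus strand.

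RefSeq promoter windows of GRCm38.p6 (250 bases before the gene's start to 50 after it) were matched by symbol for 4 of the 6 genes, which are Slc16a1, Slc16a3, Slc16a10 and Slc16a11. Slc16a6 and Slc16a13 had no entry. The windows of the 2 genes with the largest differences between KO and WT, and that of Slc16a1 as the family member with the highest level in WT MEP, are shown 5′ to 3′ on the strand of the gene. Capitals mark matches on either strand to the core of the hypoxia response element, which was searched as ACGTG and also, with another first letter, as GCGTG. They also mark sites of GATA factors, searched as AGATAA and, in the form with another first letter, as TGATAA. For RUNX factors, whose sites read TGTGGT in most known targets and TGCGGT in others, these windows held no match on either strand. For Kruppel-like factors the letters CCACACCC were searched, and with them the variant form CCGCACCC, again with no match in any of the 4 windows.
Slc16a11, chr11:70213660-70213959, plus strand: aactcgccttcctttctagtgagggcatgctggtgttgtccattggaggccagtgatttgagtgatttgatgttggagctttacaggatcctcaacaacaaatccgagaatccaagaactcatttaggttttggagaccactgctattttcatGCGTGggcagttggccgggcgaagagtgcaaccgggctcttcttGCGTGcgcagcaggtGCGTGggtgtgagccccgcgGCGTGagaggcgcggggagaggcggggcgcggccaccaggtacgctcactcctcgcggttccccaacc
Slc16a3, chr11:120948817-120949116, plus strand: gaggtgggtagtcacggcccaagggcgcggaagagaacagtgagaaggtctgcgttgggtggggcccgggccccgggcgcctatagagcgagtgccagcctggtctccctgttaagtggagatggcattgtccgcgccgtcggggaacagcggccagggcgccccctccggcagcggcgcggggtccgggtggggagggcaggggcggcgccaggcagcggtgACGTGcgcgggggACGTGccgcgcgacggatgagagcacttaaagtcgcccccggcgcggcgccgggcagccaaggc
Slc16a1, chr3:104638414-104638713, plus strand: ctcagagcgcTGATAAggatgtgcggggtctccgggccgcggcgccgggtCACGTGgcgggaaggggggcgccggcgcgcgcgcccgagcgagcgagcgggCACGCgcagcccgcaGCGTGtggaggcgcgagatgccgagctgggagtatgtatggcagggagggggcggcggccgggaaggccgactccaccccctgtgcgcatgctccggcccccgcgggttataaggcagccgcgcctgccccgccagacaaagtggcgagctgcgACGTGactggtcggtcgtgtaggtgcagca

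The Slc16a11 window held 4 hypoxia cores, all GCGTG on the strand of the gene. The Slc16a3 window held 2, both ACGTG on the strand of the gene. Slc16a1 had 5 matches, of which 1 palindromic CACGTG counts on both strands, and 1 GATA match. The window of Slc16a10 had 2. Of 32851 RefSeq promoter windows of 300 bases, 43.8% held at least 1 hypoxia core, 20.6% at least 2, 3.86% at least 4 and 1.66% at least 5, and 18.6% held a GATA match, 22.4% a RUNX match and 5.31% a Kruppel-like match. The 4 windows are rich in G and C (58.0% in Slc16a11, 65.3% in Slc16a10, 73.3% in Slc16a3 and 73.7% in Slc16a1, against a median of 52.7% over all windows). They held 20, 26, 36 and 42 CpG in the same order, against a median of 7. A match of letters is a description and not a binding site. The windows do not hold the starts of all transcripts. Slc16a3-201, which carried most counts of Slc16a3 in GMP, starts 587 bases upstream of the RefSeq start, and Slc16a11-201 starts 205 bases downstream of it, outside the window like 10 of the 11 Slc16a11 transcripts.

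The 22 libraries held between 40803835 and 65930565 estimated counts each. Values for 1 gene are given as CPM (estimated counts scaled to library size after TMM normalization), over the 18 precursor libraries or over the 4 LT-HSC libraries, and levels of different genes are compared only as TPM, which is per transcript length. With 2 or 3 mice a group, an exact permutation test cannot go below a two-sided p of 0.333 or 0.1, so that all calls use edgeR's quasi-likelihood F-test with Benjamini-Hochberg adjustment over all genes of a comparison, at an FDR of 0.1. Arid1a RNA was lower in every KO library than in every WT library of the same population, with log2 fold changes of -1.14 in LT-HSC (SE 0.27, adjusted p = 0.421), -0.22 in CMP (SE 0.06, adjusted p = 0.0284), -0.40 in GMP (SE 0.11, adjusted p = 0.0246) and -0.14 in MEP (SE 0.05, adjusted p = 0.0836). The transcript remains after loss of 1 exon, so that these values are only a partial check of deletion. Marker lists of LT-HSC, GMP and MEP were highest in the libraries labelled with those populations, and none was set for CMP: 7 LT-HSC markers summed to 363–594 TPM in LT-HSC and at most 129 elsewhere, 6 GMP markers to 31113–46798 TPM in GMP and at most 4800 elsewhere, and 9 MEP and erythroid markers to 3485–5997 TPM in MEP and at most 3379 elsewhere. Both WT LT-HSC libraries stood apart from the KO libraries. In WT mouse A, 27191 genes reached 10 counts, against 18504 to 22407 genes in the other 3 libraries, and WT mouse B held 2750 TPM of 8 late neutrophil markers against 406 to 453 TPM in the other 3. In bulk samples, fewer cells of a type and less RNA per cell cannot be told apart.

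The order of the 6 genes by TPM differed between populations and between genotypes. Slc16a1 was first of the 6 in WT LT-HSC (31.2 and 63.7 TPM) and WT MEP (72.8 to 87.6 TPM). Its range overlapped that of Slc16a6 in WT CMP (39.5 to 50.9 and 38.8 to 42.6 TPM) and in WT GMP (47.9 to 57.0 and 47.7 to 62.9 TPM), so that these 2 are not ranked there. Slc16a10 was the third of the 6 in WT CMP, GMP and MEP, with 15.8 to 28.3 TPM (overlapping Slc16a3 in GMP), but had only 0.61 to 1.25 TPM in the 4 LT-HSC libraries. Slc16a11 was the lowest of the 6 in WT CMP, WT GMP and WT MEP, at 7.32 ± 0.86, 0.79 ± 0.29 and 0.33 ± 0.29 TPM (SD, n = 3 each), although in CMP its range of 6.34 to 7.92 TPM overlapped those of Slc16a3 (7.44 to 9.68 TPM) and Slc16a13 (7.82 to 11.2 TPM). In KO CMP its range of 40.1 to 57.6 TPM overlapped those of Slc16a6 (41.8 to 54.2 TPM) and Slc16a1 (43.2 to 52.8 TPM). The TPM of a gene sums all its transcripts, also those not annotated as protein-coding. For Slc16a11 in KO CMP these included the retained-intron Slc16a11-206, Slc16a11-209 and Slc16a11-208 (means of 13.2, 4.91 and 3.01 TPM). Slc16a11-203, annotated for nonsense-mediated decay, had a mean of 4.34 TPM there. Slc16a1 had 1 transcript, which is protein-coding. In KO GMP, Slc16a3 stood at 58.2 to 60.8 TPM, above Slc16a1 (43.5 to 52.1 TPM) and within the range of Slc16a6 (50.1 to 64.0 TPM). In KO MEP, Slc16a6 (92.0 to 96.7 TPM) stood above Slc16a1 (58.2 to 68.3 TPM), where WT MEP had the opposite order. In KO LT-HSC, Slc16a11 had 19.2 and 25.6 TPM and overlapped Slc16a13 and Slc16a6, where in WT LT-HSC it had 0.25 and 1.88 TPM and lay below both.

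**Figure D1:**
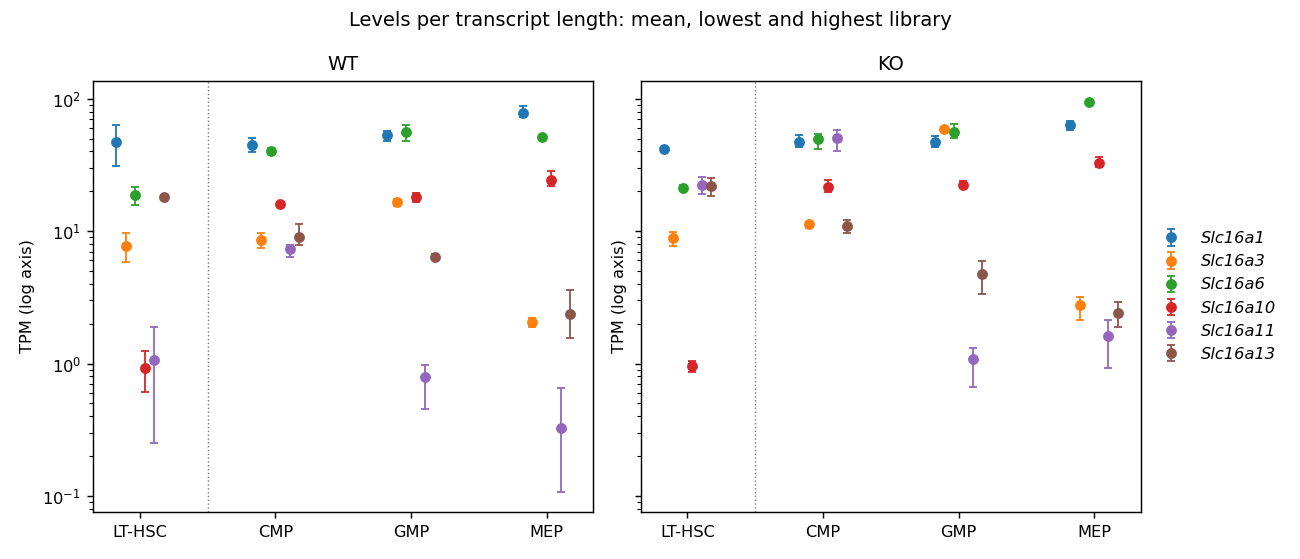
TPM (log axis) of the 6 genes in each population, in WT (left) and KO (right); points are means over 2 LT-HSC or 3 precursor mice and bars reach the lowest and highest library. Slc16a11 (purple) moved from 7.32 TPM in WT CMP to 50.2 TPM in KO CMP, and Slc16a3 (orange) from 16.5 TPM in WT GMP to 59.3 TPM in KO GMP; the dotted line divides the 2 library kits.

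Between WT populations, RNA of the lactate and pyruvate carriers MCT1 and MCT4 was highest in different populations, Slc16a1 in MEP and Slc16a3 in GMP. Slc16a1 had 120, 144 and 112 CPM in WT CMP (mice 300, 305 and 309), 176, 171 and 155 CPM in WT GMP, and 259, 308 and 255 CPM in WT MEP. No library of 1 population overlapped another, with CMP lowest and MEP highest. It was 1.35-fold higher in GMP than in CMP (log2 fold change 0.44, SE 0.09, adjusted p = 0.0050), and 2.15-fold higher in MEP than in CMP (log2 fold change 1.10, SE 0.11, adjusted p = 4.24e-05). Slc16a3 had 10.1, 9.71 and 9.73 CPM in WT CMP, 21.9, 19.0 and 19.7 CPM in WT GMP, and 3.46, 3.30 and 3.15 CPM in WT MEP. It was thus highest in the granulocyte-macrophage population, again with no overlap. GMP exceeded CMP 2.08-fold (log2 fold change 1.06, SE 0.09, adjusted p = 2.04e-05) and MEP 6.20-fold (log2 fold change 2.63, SE 0.13, adjusted p = 2.93e-07), and MEP was below CMP by a log2 fold change of -1.60 (SE 0.12, adjusted p = 1.32e-05).

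The other 4 genes fell into 2 patterns in WT mice. Slc16a6 and Slc16a10, the carriers linked to ketone bodies and aromatic amino acids, were lower in CMP than in GMP or MEP. Slc16a10 had 54.2 to 56.9 CPM in CMP, 66.6 to 74.3 CPM in GMP and 95.3 to 122 CPM in MEP, and all 3 pairs of populations differed (GMP over CMP, log2 fold change 0.35, SE 0.07, adjusted p = 0.00298; MEP over CMP, 0.91, SE 0.09, adjusted p = 5.42e-05; GMP over MEP, -0.58, SE 0.10, adjusted p = 6.53e-04). Slc16a6 had 50.2 to 50.7 CPM in CMP, 69.6 to 83.5 CPM in GMP and 93.5 to 105 CPM in MEP, and GMP and MEP both exceeded CMP (log2 fold changes 0.63, SE 0.08, adjusted p = 1.32e-04, and 0.94, SE 0.06, adjusted p = 5.43e-06). Its difference between GMP and MEP (-0.34, SE 0.08, adjusted p = 0.00417) turned to 0.03 with adjusted p = 0.83 once transcript lengths entered the fit, so that GMP and MEP are not ranked for this gene.

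Slc16a11 and Slc16a13, the neighbouring pair on chromosome 11, were both higher in WT CMP than in WT MEP. Only Slc16a11 was also clear of WT GMP. Slc16a11 had 5.20, 4.45 and 4.88 CPM in WT CMP (229 to 331 estimated counts), 0.45, 0.33 and 0.66 CPM in WT GMP (16 to 34 counts) and 0.70, 0.10 and 0.22 CPM in WT MEP (4 to 37 counts). Its level in GMP was 0.10 times (log2 fold change -3.31, SE 0.26, adjusted p = 8.76e-06) and in MEP 0.07 times that in CMP (log2 fold change -3.78, SE 0.51, adjusted p = 2.63e-04). GMP and MEP overlapped (log2 fold change 0.47, SE 0.61, adjusted p = 0.525). Without WT MEP mouse 300, the highest of the 3 MEP libraries, that difference became 1.57 with adjusted p = 0.0423. Slc16a13 fell from 11.2 to 12.9 CPM in CMP to 3.05 to 3.64 CPM in MEP (log2 fold change -1.88, SE 0.14, adjusted p = 9.51e-06), and GMP, at 9.55 to 11.3 CPM, lay above MEP (log2 fold change 1.61, SE 0.15, adjusted p = 1.80e-05). Its difference between GMP and CMP was -0.25 (SE 0.11, adjusted p = 0.121), and with the mouse as a block -0.25 with adjusted p = 0.0600, which passes the threshold. Without WT GMP mouse 309 it was -0.33 with adjusted p = 0.0830.

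Counted over the 6 genes, 4 were higher and 1 lower in WT GMP than in WT CMP, 3 were higher and 3 lower in WT MEP than in WT CMP, and 2 were higher and 3 lower in WT GMP than in WT MEP. Differences between these populations were common among all genes, since 43.0% of genes passed the same test between GMP and CMP, 72.1% between MEP and CMP, and 71.1% between GMP and MEP. The 3 comparisons share libraries and are not independent.

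**Figure D2:**
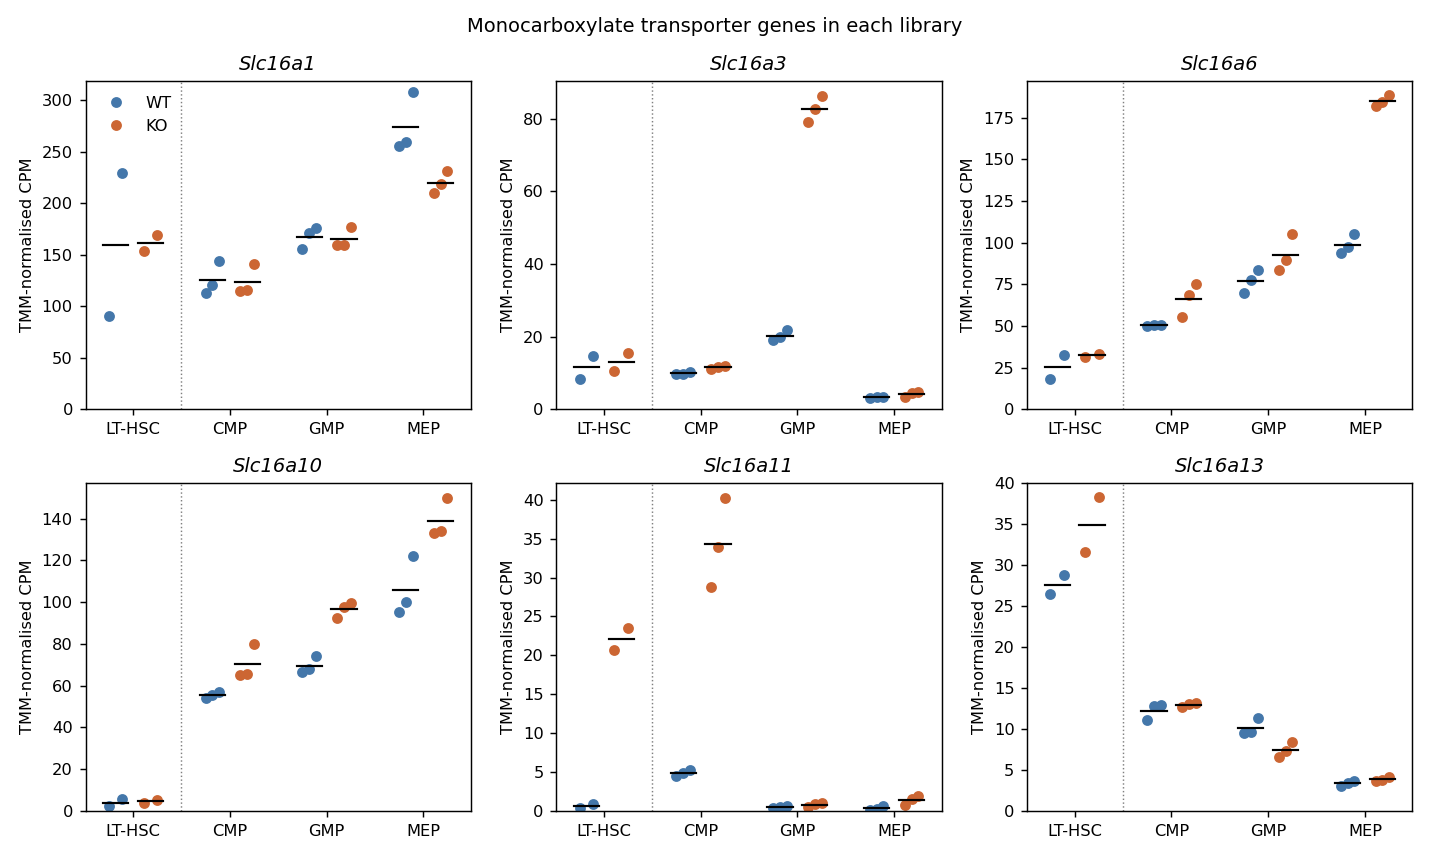
TMM-normalised CPM of each gene in each of the 22 libraries (1 point per mouse, WT blue, KO orange; black lines are group means; each vertical axis starts at 0 and differs by gene). KO points of Slc16a11 in LT-HSC and CMP, of Slc16a3 in GMP and of Slc16a6 in MEP stand clear of the WT points; the dotted line separates LT-HSC, which were normalised apart.

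In LT-HSC, Slc16a11 was the member with the largest difference between KO and WT. It had 0.88 and 0.36 CPM in WT mice A and B (43 and 18 estimated counts) and 23.5 and 20.7 CPM in KO mice A and B (1516 and 1009 counts). Both KO libraries were far above both WT libraries. The log2 fold change was 5.16 (SE 0.64), a 35.6-fold difference, and it was 5.95 without WT mouse A and 4.62 at the lowest when a single library was left out. Slc16a13 next to it had 26.4 and 28.8 CPM in WT and 31.6 and 38.3 CPM in KO LT-HSC, which did not overlap (log2 fold change 0.34, SE 0.31). The other 4 overlapped: Slc16a1 had 90.7 and 229 CPM in WT against 153 and 169 CPM in KO, and Slc16a10, at 2.20 and 5.52 CPM in WT and 3.86 and 5.19 CPM in KO, was low in all 4 libraries. The difference between the 2 WT mice was larger than that between genotypes for Slc16a1, Slc16a3, Slc16a6 and Slc16a10, and with a single library left out the fold changes of 3 of them took either sign. The log2 fold change of Slc16a1 was 0.011, with -0.49 without WT mouse A and 0.79 without WT mouse B. That of Slc16a3 was 0.16, with -0.16 and 0.59 in the same order, and that of Slc16a10 was 0.23, with -0.27 and 1.001. Over all genes in LT-HSC, KO and WT did not overlap in 36.3%, and 0.0792% passed the FDR. The median log2 fold change over all genes was -0.16 in LT-HSC, so that values of this population stand against that shift.

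In CMP, Slc16a11 again had the largest difference. It stood at 5.20, 4.45 and 4.88 CPM in WT mice and at 34.0, 28.7 and 40.2 CPM in KO mice 301, 304 and 308, so that the lowest KO library was far above the highest WT library. The log2 fold change was 2.82 (SE 0.13), or 7.05-fold, and stayed between 2.69 and 2.93 when each library was left out. Slc16a3, Slc16a6 and Slc16a10 were also higher in every KO than in every WT library, by much less. Slc16a10 had 54.2, 55.3 and 56.9 CPM in WT and 65.6, 79.8 and 65.3 CPM in KO (log2 fold change 0.34, SE 0.08), Slc16a6 had 50.2 to 50.7 CPM in WT and 55.1 to 74.9 CPM in KO (0.39, SE 0.10), and Slc16a3 had 9.71 to 10.1 CPM in WT and 11.2 to 12.0 CPM in KO (0.22, SE 0.09). Slc16a1 (112 to 144 CPM in WT, 115 to 141 CPM in KO) and Slc16a13 (11.2 to 12.9 CPM in WT, 12.7 to 13.1 CPM in KO) overlapped. KO and WT did not overlap in 33.5% of all genes in CMP, and 23.4% passed the FDR.

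Markers moved with these groups too. The 7 LT-HSC markers summed to 57.1–75.2 TPM in WT CMP and 104–116 TPM in KO CMP, and the 9 MEP and erythroid markers to 955–1051 TPM and 1384–1572 TPM. The 6 GMP markers summed to 3946–4800 TPM in WT CMP and 1750–2713 TPM in KO CMP, and 6 B lymphoid markers to at most 4.32 TPM in either. Megakaryocyte markers (6 genes) summed to 768–1127 TPM in WT and 595–621 TPM in KO CMP, 6 monocyte and macrophage markers to 233–487 TPM and 144–196 TPM, and 5 basophil and mast cell markers to 104–267 TPM and 72.3–80.4 TPM. In LT-HSC the 7 LT-HSC markers summed to 459–594 TPM in WT and 363–413 TPM in KO, the basophil and mast cell markers to 3.59–11.3 TPM and 15.8–33.3 TPM, and the B lymphoid markers to 9.05–33.5 TPM and 2.12–8.01 TPM. The part of these shifts in the values of Slc16a11 was not tested.

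In GMP, Slc16a3 was the member that stood out. It had 21.9, 19.0 and 19.7 CPM in WT mice 300, 305 and 309 and 79.1, 86.2 and 82.7 CPM in KO mice 301, 304 and 308. The 2 groups were far apart and each was tight, with an SD of 1.52 CPM in WT and 3.51 CPM in KO. The log2 fold change was 2.02 (SE 0.08), or 4.05-fold, and 1.96 to 2.07 with each library left out. Slc16a10 was higher in KO as it was in CMP, at 68.0, 74.3 and 66.6 CPM in WT and 99.9, 97.6 and 92.6 CPM in KO (0.46, SE 0.06). Slc16a13 was lower in KO, at 9.55, 9.65 and 11.3 CPM in WT and 8.47, 7.29 and 6.59 CPM in KO (-0.46, SE 0.13), which became -0.29 with transcript lengths in the fit. Slc16a11 had 0.33 to 0.66 CPM in WT and 0.54 to 1.03 CPM in KO, with 26 to 52 estimated counts in the KO libraries, and overlapped. Slc16a1 and Slc16a6 also overlapped, with log2 fold changes of -0.03 (SE 0.07) and 0.26 (SE 0.10). Across all genes in GMP, 42.5% did not overlap and 33.9% passed the FDR.

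Beside Slc16a3 in GMP, 8 late neutrophil markers summed to 176–390 TPM in WT and 415–1348 TPM in KO libraries, and 6 GMP markers to 31113–36641 TPM and 41539–46798 TPM. Monocyte and macrophage markers (6 genes) summed to 1254–1511 TPM in WT and 885–1093 TPM in KO, and 5 basophil and mast cell markers to 771–1239 TPM and 124–173 TPM. The 6 megakaryocyte markers summed to 107–226 TPM in WT and 72.3–92.4 TPM in KO, and the 7 LT-HSC markers to 16.0–21.0 TPM and 12.7–13.3 TPM. Their part in the difference of Slc16a3 was not tested.

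The choice of the 6 genes named no value in MEP, and the difference there was tested. MEP came from the same mice as CMP and GMP, whose values were known, so that this test is not independent of the choice. Of the 6, 3 were higher in KO (Slc16a6, Slc16a10 and Slc16a11), 1 was lower (Slc16a1) and 2 did not pass (Slc16a3 and Slc16a13), while 29.4% of all genes tested passed and 38.2% did not overlap. The median log2 fold change of the 6 was 0.36, against -0.00202 over all genes. Slc16a6 had 93.5, 105 and 97.1 CPM in WT and 182, 188 and 185 CPM in KO, which was 1.87-fold higher (log2 fold change 0.91, SE 0.06, adjusted p = 4.03e-05). It was the clearest difference of the 6, and it was between 0.86 and 0.95 with each library left out. Slc16a10 had 95.3, 122 and 99.96 CPM in WT and 133, 150 and 134 CPM in KO (log2 fold change 0.39, SE 0.10, adjusted p = 0.0221), and so its KO and WT libraries did not overlap in any precursor population, with KO higher in each. Slc16a1, the gene of MCT1, had 259, 308 and 255 CPM in WT and 219, 231 and 210 CPM in KO, a fall of 0.32 on the log2 scale (log2 fold change -0.32, SE 0.08, adjusted p = 0.0209).

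Slc16a11 had low counts in MEP but passed the test. It had 0.70, 0.10 and 0.22 CPM in WT (37, 4 and 9 estimated counts) and 0.70, 1.53 and 1.87 CPM in KO (34, 76 and 100 counts). The lowest KO and the highest WT library thus had nearly the same level. The log2 fold change was 1.95 (SE 0.62, adjusted p = 0.0570). The call was lost without WT mouse 309 (adjusted p = 0.166), KO mouse 304 (adjusted p = 0.136) or KO mouse 308 (adjusted p = 0.162). Slc16a3 (3.15 to 3.46 CPM in WT, 3.28 to 4.69 CPM in KO, log2 fold change 0.33, SE 0.18, adjusted p = 0.248) and Slc16a13 (3.05 to 3.64 CPM in WT, 3.68 to 4.12 CPM in KO, 0.19, SE 0.15, adjusted p = 0.439) did not pass. The 9 MEP and erythroid markers summed to 4840–5997 TPM in WT and 3485–3927 TPM in KO MEP, and the 7 LT-HSC markers to 70.2–72.9 TPM and 117–129 TPM, with Fgd5 of the latter under 0.1 TPM in both. Megakaryocyte markers (6 genes) summed to 25.7–48.2 TPM in WT and 72.3–97.5 TPM in KO MEP, the 8 late neutrophil markers to 31.7–110 TPM and 12.2–29.5 TPM, and the 5 basophil and mast cell markers to 3.59–7.06 TPM and 1.14–2.66 TPM. The part of these lists in the differences was not tested.

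**Figure D3:**
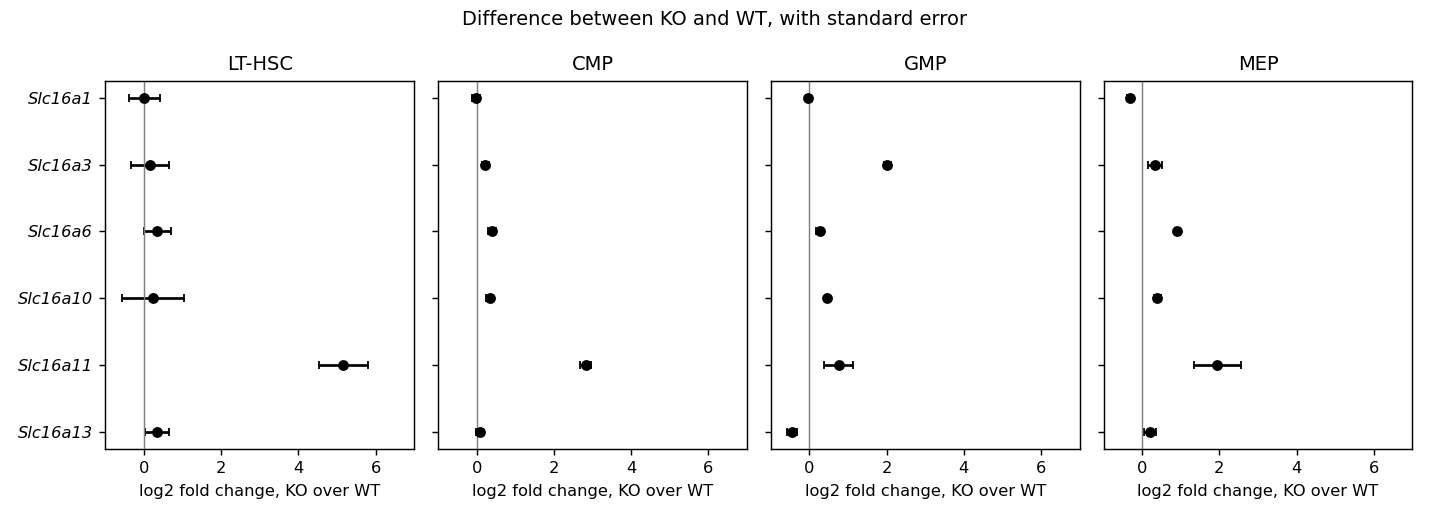
Log2 fold change of KO over WT for the 6 genes in each population, with the standard error as bars (n = 2 per group in LT-HSC and 3 in the others). Slc16a11 reached 5.16 in LT-HSC and 2.82 in CMP, Slc16a3 reached 2.02 in GMP, and the remaining values lay between -0.46 and 1.95.

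In KO mice the populations stood, by CPM, in the order seen in WT for Slc16a1, Slc16a3 and Slc16a10. Slc16a1 had 115 to 141 CPM in KO CMP, 159 to 177 CPM in KO GMP and 210 to 231 CPM in KO MEP. KO Slc16a10 had 65.3 to 79.8 CPM in CMP, 92.6 to 99.9 CPM in GMP and 133 to 150 CPM in MEP. For Slc16a3, KO GMP (79.1 to 86.2 CPM) was above KO CMP (11.2 to 12.0 CPM) and KO MEP (3.28 to 4.69 CPM). Slc16a6, for which WT GMP and WT MEP are not ranked, had 55.1 to 74.9 CPM in KO CMP, 83.2 to 105 CPM in KO GMP and 182 to 188 CPM in KO MEP. Slc16a11 in KO CMP (28.7 to 40.2 CPM) was above KO GMP and KO MEP, which overlapped. Slc16a13 went from 12.7 to 13.1 CPM in KO CMP through 6.59 to 8.47 CPM in KO GMP to 3.68 to 4.12 CPM in KO MEP.

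Kallisto assigned counts to several transcripts of Slc16a11, Slc16a3 and Slc16a6, and to 1 transcript each for Slc16a1 and Slc16a10. In CMP, the 4-exon protein-coding transcript Slc16a11-201 had 1.10 ± 0.61 TPM in WT and 12.6 ± 2.11 TPM in KO (SD, n = 3 each) and held 33.1 to 41.5% of the gene's counts in KO. The retained-intron transcript Slc16a11-206 went from 1.96 ± 0.01 to 13.2 ± 2.67 TPM. Of 11 annotated transcripts, 8 had a higher mean in KO than in WT CMP, 2 had a mean of 0.00 TPM in both, and Slc16a11-210 was at 0.60 TPM in WT and 0.00 in KO. In GMP, the 6-exon transcript Slc16a3-201 had 10.1 ± 1.07 TPM in WT and 39.3 ± 0.70 TPM in KO, and it held 80.7 to 83.9% of the counts of Slc16a3 in KO GMP and 73.4 to 80.6% in WT GMP. In WT MEP that transcript held at most 22.3% of the few counts, and Slc16a3-202 held 41.2 to 61.2%. Slc16a6 counts were split between 2 transcripts, Slc16a6-202 (55.6 to 61.6% in WT MEP) and Slc16a6-203 (35.9 to 40.6%), and in MEP both were higher in KO, at 33.6 ± 3.71 against 17.4 ± 1.97 TPM and 39.3 ± 3.80 against 20.7 ± 0.45 TPM (SD, n = 3). In LT-HSC Slc16a6-203 alone held 85.3 to 93.6% of the counts. These shares are estimates from reads that the transcripts largely share.

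**Figure D4:**
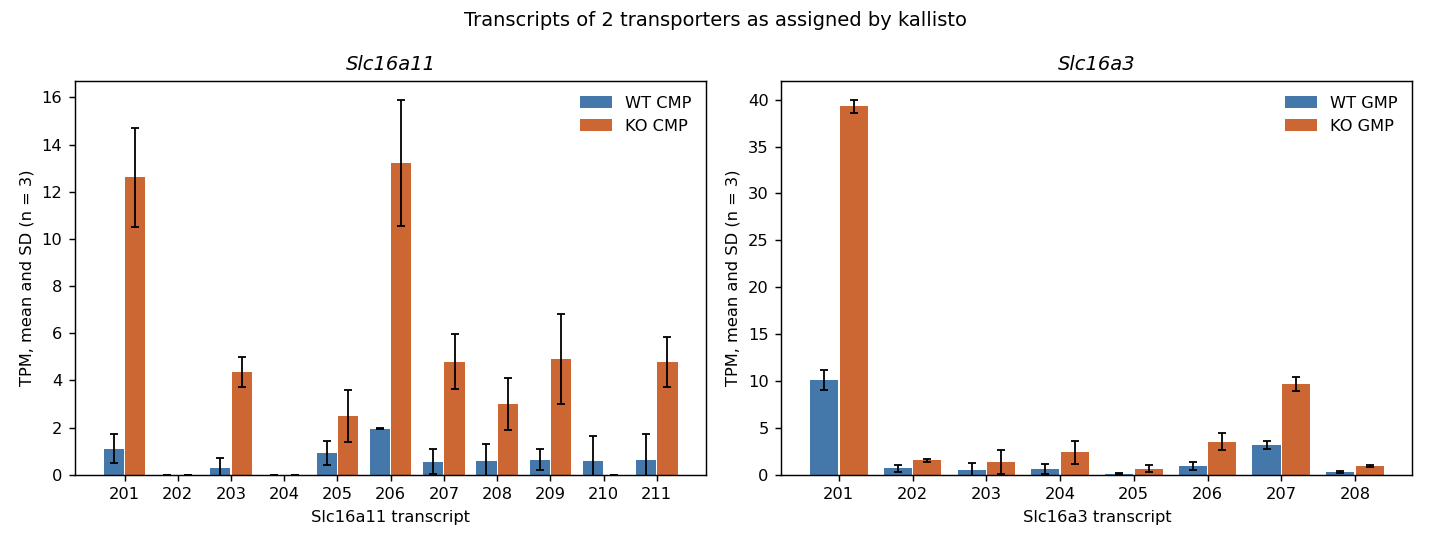
TPM of each annotated transcript of Slc16a11 in CMP (left) and Slc16a3 in GMP (right), WT in blue and KO in orange; bars are means and error bars the SD of 3 mice. Slc16a3-201 went from 10.1 to 39.3 TPM, and Slc16a11-201 and Slc16a11-206 from 1.10 and 1.96 to 12.6 and 13.2 TPM.

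Protein-coding genes within 25 kb of the 6 genes had smaller differences than Slc16a11 in LT-HSC and CMP and than Slc16a3 in GMP. Around Slc16a11, the nearest gene, Slc16a13, had log2 fold changes of 0.34, 0.07, -0.46 and 0.19 in LT-HSC, CMP, GMP and MEP, where those of Slc16a11 were 5.16, 2.82, 0.76 and 1.95. Bcl6b, a transcriptional repressor gene 3064 bases beyond Slc16a13, rose from a low level in CMP (log2 fold change 1.23, SE 0.35, adjusted p = 0.0425, mean of 0.30 CPM in WT) and had 1.23 (SE 0.79, adjusted p = 0.876) in LT-HSC. Further out, Rnasek rose in GMP (0.36, SE 0.07, adjusted p = 0.00356), 0610010K14Rik rose in GMP (0.20, SE 0.07, adjusted p = 0.0517), and Gm21988 and Alox12 passed in no population. Next to Slc16a3, Csnk1d, the casein kinase 1 delta gene 881 bases away on the opposite strand, had a log2 fold change of -0.02 in GMP (SE 0.05, adjusted p = 0.837). Ccdc57, 15608 bases away, rose in GMP by 0.56 (SE 0.08, adjusted p = 0.00110). Amz2, a metallopeptidase gene whose exons overlap Slc16a6 on the other strand, rose in CMP (0.32, SE 0.05, adjusted p = 0.00254), GMP (0.28, SE 0.06, adjusted p = 0.0115) and MEP (0.21, SE 0.04, adjusted p = 0.0104). The sulfatase gene Arsg, which also overlaps it, fell in GMP (-1.07, SE 0.19, adjusted p = 0.00338) and had -0.32 in MEP (SE 0.15, adjusted p = 0.178). No protein-coding gene lies within 25 kb of Slc16a1, and Mfsd4b1 beside Slc16a10 did not pass the filter for low counts.

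**Figure D5:**
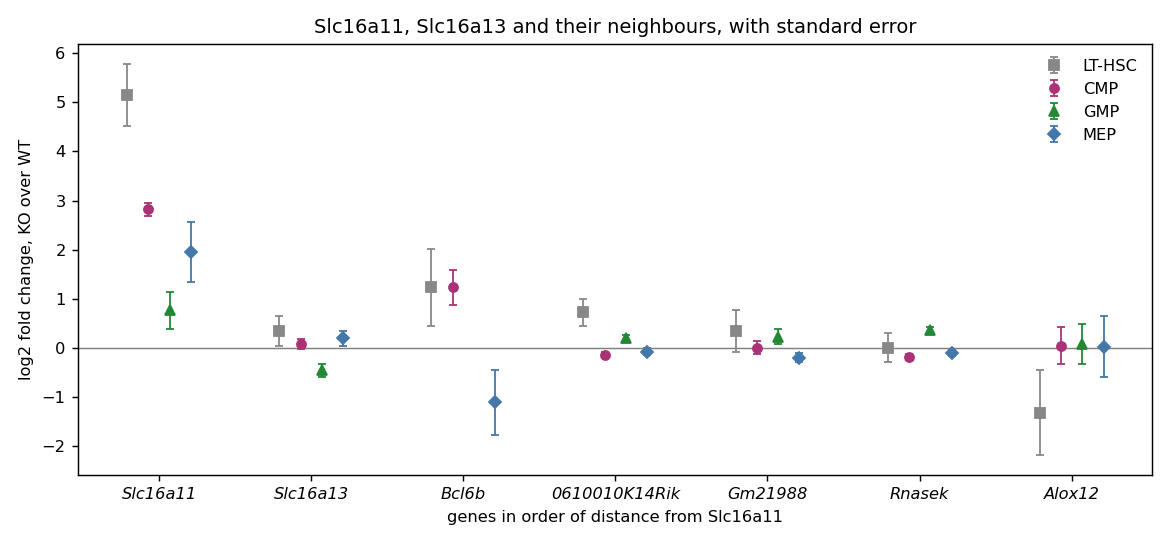
Log2 fold change of KO over WT, with standard errors, for Slc16a11, Slc16a13 and the protein-coding genes within 25 kb of either, in order of distance (not to scale), in the 4 populations. Slc16a11 stands at 5.16 in LT-HSC and 2.82 in CMP, and Slc16a13, 371 bases away, at 0.34 and 0.07; Bcl6b in GMP had too few counts to be fitted.

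Genes that work with these carriers, listed by name but with earlier results of these data known, numbered 58 in 7 lists. In LT-HSC 0 of 57 tested passed edgeR's FDR of 0.1, where 0.0792% of all genes passed. At an unadjusted p under 0.05 there were 11 of the 57, against 1180 of all 22733 genes tested. DESeq2's FDR was passed by 3. More passed without WT mouse B, the library with the late neutrophil markers, or without WT mouse A. Each of those fits holds a single WT library, so the numbers passing are not read. In CMP 9 rose and 11 fell of 52 tested (38.5%, against 23.4% of all genes), in GMP 16 rose and 13 fell of 51 (56.9%, against 33.9%), and in MEP 12 rose and 14 fell of 49 (53.1%, against 29.4%). In GMP the count was 19 without KO mouse 308, against 29 with it. The medians of the log2 fold changes over the companion genes tested were near 0 in all 3 (-0.06, 0.02 and -0.02), as were those over all genes (-0.00268, -0.0056 and -0.00202).

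Enzymes and mitochondrial carriers of lactate and pyruvate moved in both directions. In GMP 5 of 14 tested rose and 3 fell (57.1%, against 33.9% of all genes). Ldha, the lactate dehydrogenase subunit that favours lactate, rose from 719 to 881 CPM (log2 fold change 0.28, SE 0.09, adjusted p = 0.0387) and Pkm, pyruvate kinase of glycolysis, from 1437 to 1912 CPM (0.40, SE 0.07, adjusted p = 0.00324). Ldhb, another lactate dehydrogenase subunit, fell from 42.0 to 33.9 CPM (-0.32, SE 0.08, adjusted p = 0.0184). Regulators of pyruvate dehydrogenase moved both ways in GMP. Falls were seen for the kinase Pdk1 (-0.52, SE 0.08, adjusted p = 0.00133) and for the phosphatase Pdp1 (-0.69, SE 0.09, adjusted p = 4.22e-04). The kinase Pdk3 rose from 57.3 to 79.9 CPM (0.47, SE 0.08, adjusted p = 0.00249). In MEP 2 of 14 rose and 4 fell (42.9%, against 29.4% of all genes). Ldha fell from 950 to 730 CPM there (-0.38, SE 0.05, adjusted p = 0.00115) and Ldhb from 2.99 to 1.49 CPM (-1.01, SE 0.23, adjusted p = 0.0150), beside the fall of Slc16a1, while Pcx, pyruvate carboxylase, rose from 23.3 to 70.7 CPM (1.60, SE 0.15, adjusted p = 2.23e-04). In CMP 3 of 14 rose and 3 fell (42.9%, against 23.4% of all genes). Among those that rose were Pcx (0.99, SE 0.18, adjusted p = 0.00656) and Ldhd, the D-lactate dehydrogenase (1.29, SE 0.24, adjusted p = 0.00651).

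Hypoxia-responsive genes were listed because Slc16a3 is a known target of hypoxia-inducible factor. Of those tested, 35.7% passed the FDR in CMP and 61.5% in GMP and MEP, against 23.4, 33.9 and 29.4% of all genes. In GMP 6 of 13 rose and 2 fell. Pfkfb4, which makes the activator of phosphofructokinase, rose from 20.4 to 66.1 CPM (log2 fold change 1.68, SE 0.11, adjusted p = 1.75e-05), Ddit4 from 3.61 to 9.38 CPM (1.36, SE 0.15, adjusted p = 1.81e-04), Pfkfb3 by 0.56 (SE 0.06, adjusted p = 2.34e-04), and Hif1a itself by 0.57 (SE 0.08, adjusted p = 7.89e-04). P4ha1, a collagen prolyl hydroxylase, and Car9, a carbonic anhydrase, fell in GMP (-0.33, SE 0.08, adjusted p = 0.0110, and -0.29, SE 0.11, adjusted p = 0.0754). In MEP 5 of 13 rose and 3 fell, and Vegfa (-2.93, SE 0.18, adjusted p = 3.47e-05), Pfkfb4 (-1.63, SE 0.18, adjusted p = 4.99e-04) and Pfkfb3 (-1.01, SE 0.15, adjusted p = 0.00253) were those that fell. Egln1 (0.70, SE 0.06, adjusted p = 1.98e-04) and Bnip3l (0.40, SE 0.05, adjusted p = 8.84e-04) rose in MEP. So did Ddit4 (0.45, SE 0.12, adjusted p = 0.0312) and Hif1a (0.30, SE 0.09, adjusted p = 0.0476). Epas1 rose from a mean of 0.17 CPM (1.97, SE 0.52, adjusted p = 0.0288). In CMP 2 of 14 rose and 3 fell, of which P4ha1 had -0.49 (SE 0.10, adjusted p = 0.00886). Genes of glucose entry passed in 4 of 5 cases in CMP and MEP and in 5 of 5 in GMP. Of these, 2 rose and 2 fell in CMP and also in MEP, and 3 rose and 2 fell in GMP. The 2 that fell in GMP were Hk1 (-0.19, SE 0.06, adjusted p = 0.0449) and Slc2a3 (-0.28, SE 0.11, adjusted p = 0.0862). Hk3, a hexokinase of myeloid cells, fell in CMP (-1.19, SE 0.12, adjusted p = 2.93e-04) and rose in GMP (0.35, SE 0.09, adjusted p = 0.0135), and Hk2 rose in GMP (0.33, SE 0.07, adjusted p = 0.00564) and fell in MEP (-1.02, SE 0.23, adjusted p = 0.0157). Whether these effects differ between populations was not tested.

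In the ketone body list, 1 gene rose and 2 fell in CMP, 2 fell in GMP and 4 fell in MEP, of 6 in all. Over all genes, 23.4, 33.9 and 29.4% passed the FDR in CMP, GMP and MEP. The GMP count, 33.3% of the list, was thus not above the share of all genes. Bdh1, which interconverts acetoacetate and beta-hydroxybutyrate, fell in CMP (log2 fold change -1.05, SE 0.26, adjusted p = 0.0242), GMP (-1.31, SE 0.30, adjusted p = 0.00991) and MEP, where it went from 24.7 to 5.80 CPM (-2.09, SE 0.19, adjusted p = 2.23e-04). Oxct1, the enzyme that activates acetoacetate for use as fuel, fell in the same 3 populations, from 237 to 137 CPM in CMP (-0.79, SE 0.08, adjusted p = 2.72e-04), 221 to 176 CPM in GMP and 207 to 103 CPM in MEP (-1.01, SE 0.11, adjusted p = 5.14e-04, in MEP). The gene that rose in CMP was Bdh2 (1.25, SE 0.21, adjusted p = 0.00414). The 3 comparisons use the same mice.

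Partners of Slc16a10 in the transport of aromatic and other large neutral amino acids rose in 2 of 6 cases in MEP and 1 of 6 in CMP, and none of the 6 passed edgeR's FDR in GMP, where 1 had an unadjusted p under 0.05. These were 33.3, 16.7 and 0.0% of the list in MEP, CMP and GMP, against 29.4, 23.4 and 33.9% of all genes. Slc7a6, the light chain of an amino acid exchanger, rose from 3.76 to 23.5 CPM in MEP (log2 fold change 2.64, SE 0.12, adjusted p = 1.34e-05), and Slc43a1, a facilitated carrier, rose in MEP (0.50, SE 0.08, adjusted p = 0.00354) and CMP (0.45, SE 0.11, adjusted p = 0.0235). The chaperone basigin (Bsg) rose in MEP (0.34, SE 0.07, adjusted p = 0.0100) and embigin (Emb) in GMP (0.30, SE 0.07, adjusted p = 0.0144). Of the other 8 Slc16 genes, 5 were tested in GMP, where 4 fell and 1 rose, and 3 in MEP, where 1 fell. Slc16a7, the pyruvate carrier MCT2, fell from 12.2 to 9.01 CPM in GMP (-0.45, SE 0.12, adjusted p = 0.0261). Slc16a4 fell there as well (-0.72, SE 0.25, adjusted p = 0.0581). Slc16a12 was the 1 that rose in GMP (1.94, SE 0.57, adjusted p = 0.0329), and it did so from a mean of 0.11 CPM.

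Over the 18 precursor libraries, the genes whose log2(CPM + 1) followed a member most closely were sought among 13187 genes. Slc16a1 was most like Srm (Pearson r = 0.988), Fkbp4 (0.984) and Ruvbl2 (0.983), and Slc16a3 was most like Mtmr3 (0.991), Slc39a11 (0.991) and Cd300c2 (0.990). Slc16a6 was most like Wipi1 (0.984), Tnfrsf14 (0.975) and Ube2j1 (0.969). Wipi1 is a gene of autophagy 99.7 kb from Slc16a6 on the same strand, and it had 31.1 CPM in WT MEP and 62.8 CPM in KO MEP, where the means of Slc16a6 were 98.6 and 185 CPM. Slc16a10 was most like Pmm2 (0.981), Dclre1a (0.977) and Fancd2 (0.976). Slc16a11 was most like Ltb (0.987), Tnip3 (0.985) and Paqr5 (0.977), each of them highest in KO CMP among the precursor groups, with Tnip3 at 2.81 CPM in WT CMP and 30.6 CPM in KO CMP. Slc16a13 was most like Pls3 (0.984), Tsga10 (0.981) and Clec10a (0.981), a gene 46.0 kb from it. Among the 6 genes themselves, Slc16a6 and Slc16a10 were the most alike (r = 0.948) and Slc16a1 and Slc16a13 the most opposed (r = -0.914), and the neighbours Slc16a11 and Slc16a13 had r = 0.628. The libraries share mice and fall into populations that differ in many genes, so these values describe the pattern over groups and are given without a p.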

How the data were processed

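RNA was measured in 22 libraries of sorted mouse bone marrow cells (100 bp paired-end reads). The authors aligned reads to Ensembl 84 transcripts of GRCm38 with kallisto 0.43.1 and deposited, per transcript and library, an estimated count, a TPM value and an effective length. No other normalization was applied to the estimated counts by the authors, who used DESeq2 1.18.1 for their own comparisons. Fragments shared by transcripts are split between them by kallisto, so transcripts of 1 gene are less certain than their sum.

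Of 115088 transcripts, 114200 (99.2%) were paired with genes of GENCODE vM21, and their estimated counts and TPM were summed per gene (47311 genes). Transcripts left unpaired held 0.233 to 0.363% of a library's counts and were left out. Counts were rounded to whole numbers and fitted with edgeR 4.0.16 in R 4.3.3 (filterByExpr, TMM, quasi-likelihood F-test, Benjamini-Hochberg adjustment over all genes of a comparison, FDR 0.1), each population apart with genotype as the only term, and WT populations in pairs. Standard errors were derived as the size of the log2 fold change over the square root of F. CPM were TMM-normalised over the 18 precursor or the 4 LT-HSC libraries. Each library is 1 mouse.

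The 6 genes and all lists were chosen with earlier results of these data known, so KO against WT in LT-HSC, CMP and GMP carries no test for the 6. Genes named beside the 6 were Arid1a, protein-coding genes within 25 kb, the 3 most alike by Pearson correlation over 18 libraries, and, per KO against WT comparison, the 8 companion genes with the largest absolute log2 fold change among those past the FDR with a mean of at least 1 TPM; other companion genes named were picked after their values were seen, as members of the 7 lists. For 1 gene that this rule names, the values are not reported here. Same-numbered WT samples of different populations come from the same mouse. Their deviations from the group means correlated with r from 0.0749 to 0.275 between CMP and GMP, 0.198 to 0.414 between CMP and MEP, and 0.204 to 0.262 between GMP and MEP.

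The processing was varied by using DESeq2 1.42.0, its size factors in edgeR, all genes with any count, an offset for transcript length, a replicate block, an FDR of 0.05, and by leaving out each library. The scripts were tested on simulated data. Promoter sequences are those of RefSeq for GRCm38.p6.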

Additional observations from a re-analysis of the deposited data

Results flagged for a closer look

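Slc16a13 pointed in different directions between populations, with no overlap between KO and WT libraries in any of 3 of them. It was higher in KO in LT-HSC (log2 fold change 0.34), lower in KO in GMP (-0.46) and higher in KO in MEP (0.19, adjusted p = 0.439). The difference between populations was not tested, the LT-HSC value rests on 2 mice per group made with another kit, and in LT-HSC, GMP and MEP 36.3, 42.5 and 38.2% of all genes had KO and WT libraries that did not overlap.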

How the results depend on the processing

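All counts of the 6 genes past the FDR stayed within 1.5 times of the value given under median-of-ratios size factors, no filter, the length offset, the replicate block, DESeq2 and an FDR of 0.05. Leaving out 1 library gave 3 to 4 of 6 in MEP, 5 to 6 for WT GMP against CMP, 6 for WT MEP against CMP, and 5 to 6 for WT GMP against MEP. Companion genes past the FDR then numbered 0 to 15 in LT-HSC, 14 to 21 in CMP, 19 to 26 in GMP and 24 to 27 in MEP, and DESeq2 gave 3 in LT-HSC where edgeR gave 0. Slc16a6 between WT GMP and WT MEP turned from -0.34 to 0.0251 under the length offset, and the cause was not tested. That offset also moved Slc16a13 in LT-HSC to 0.50, in CMP to 0.17 and in GMP to -0.29, and Slc16a3 and Slc16a6 in CMP to 0.29 and 0.19. The replicate block pairs WT populations by mouse, and it brought Slc16a13 between GMP and CMP past the threshold (adjusted p = 0.0600) and changed no other call of the 6. For KO against WT no label pairs the mice; blocked by the column order of the study's tables, companion calls were 0, 29, 36 and 26 in LT-HSC, CMP, GMP and MEP against 0, 20, 29 and 26. As a hint from the data and not from the design, the WT and KO libraries so paired deviated from their group means together in LT-HSC (r = 0.291), CMP (0.163 to 0.313) and GMP (0.281 to 0.381), and in MEP with r from 0.0153 to 0.356, where WT mouse 300 was more like another KO mouse (0.170). With 2 LT-HSC mice per genotype, the standard errors of 0.31 to 0.81 leave differences of that size undetectable in the 5 genes other than Slc16a11.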
